A study of Mus musculus with 5 samples.

Results

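The genes described here mark the inhibitory interneurons of the cerebral cortex and the progenitors that give rise to them. They are Gad1, Gad2, Dlx1, Dlx2, Dlx5, Dlx6, Gsx2, Lhx6, Npy and Calb2, 10 of the 21938 protein-coding genes of the annotation on the main chromosomes, and they were listed by name, as genes expected not to be NEUROD2 targets, with earlier results of these data known. Gad1, Dlx2, Npy, Gsx2 and Calb2 were also picked by the study as presumed non-targets for ChIP-qPCR, which was not analysed here, so low counts of peaks near the genes are not independent evidence. For each gene, NEUROD2 peaks were collected over the gene body plus 50 kb on each side, called its window below. The binding of NEUROD2 was measured by ChIP-Seq, in which DNA bound by a protein is recovered with an antibody and sequenced, in unsorted cortex of untreated wild-type BALB/c mice at postnatal day 0, pooled from littermate pups. Antibody 1 (ab168932), antibody 2 (ab104430) and antibody 3 (ab109406) against NEUROD2 gave 1 library each, and the reads of an unrelated GFP antibody served as the control of peak calling. It is not stated if the antibodies were applied to separate pools of mice. No condition was varied, and no test between groups was possible.

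NEUROD2 is a basic helix-loop-helix transcription factor of excitatory cortical neurons. It binds, as a dimer with a partner protein, to E-boxes, short DNA elements that read CANNTG. Cortical interneurons are born outside the cortex, in the ganglionic eminences of the ventral forebrain, and migrate into it, so that neonatal cortex holds both lineages. In the progenitors of the eminences the homeodomain factors Gsx2 and then the Dlx genes act in sequence, Lhx6 follows in neurons from the medial eminence, and Gad1 and Gad2 encode the enzymes that make the transmitter GABA from glutamate. Npy encodes neuropeptide Y and Calb2 encodes the calcium-binding protein calretinin, and each marks a subset of interneurons. Because the tissue was not sorted, a site bound in few cells and a site bound weakly in many cells cannot be told apart.

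The genomic sequences that carry the result are shown here, read from the plus strand of GRCm38 (mm10), the build of the peak lists, with E-boxes in capitals. The peaks inside Gad1, in the window of Gad2 and in the window of Calb2 are shown because they are peaks of a single antibody near the genes studied. The site beyond Dlx2 is shown because it was the closest site of all 3 antibodies to any of these genes, and the site beside Slc17a7, the vesicular glutamate transporter of cortical excitatory neurons, is shown for contrast. The Slc17a7 site had the highest score, summed over antibodies, among the excitatory genes compared below, so it is not a typical site. The peak in the Calb2 window is shown without the part that overlaps transcript ends, and sites longer than 300 bp are shown by their central 300 bp.
Gad1 intron 1, chr2:70558180-70558401, antibody 2: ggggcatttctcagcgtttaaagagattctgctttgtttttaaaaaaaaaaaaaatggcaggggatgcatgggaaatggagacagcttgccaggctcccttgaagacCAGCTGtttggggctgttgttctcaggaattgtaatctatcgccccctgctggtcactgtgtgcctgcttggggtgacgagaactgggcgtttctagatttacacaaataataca
Gad1 intron 4, chr2:70573571-70573865, antibody 2: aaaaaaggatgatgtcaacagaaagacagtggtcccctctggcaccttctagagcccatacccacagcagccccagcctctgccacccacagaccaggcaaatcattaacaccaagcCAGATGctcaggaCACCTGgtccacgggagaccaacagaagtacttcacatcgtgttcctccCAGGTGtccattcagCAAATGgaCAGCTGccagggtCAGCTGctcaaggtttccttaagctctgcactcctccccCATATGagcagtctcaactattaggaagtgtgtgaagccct
Gad2 window, chr2:22589382-22589452, antibody 3: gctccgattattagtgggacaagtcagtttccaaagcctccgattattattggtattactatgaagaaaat
Calb2 window, chr8:110218087-110218250, antibody 2: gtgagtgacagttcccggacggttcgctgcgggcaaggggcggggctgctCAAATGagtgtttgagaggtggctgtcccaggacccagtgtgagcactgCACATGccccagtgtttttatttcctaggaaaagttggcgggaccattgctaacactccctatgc
Beyond Dlx2, chr2:71629445-71629744, antibodies 1, 2 and 3: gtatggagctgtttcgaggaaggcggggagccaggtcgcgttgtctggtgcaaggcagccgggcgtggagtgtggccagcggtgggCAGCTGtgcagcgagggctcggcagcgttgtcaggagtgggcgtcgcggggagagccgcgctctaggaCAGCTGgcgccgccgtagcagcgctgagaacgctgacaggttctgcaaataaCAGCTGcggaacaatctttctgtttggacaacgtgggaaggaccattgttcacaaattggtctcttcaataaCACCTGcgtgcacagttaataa
Beside Slc17a7, chr7:45162244-45162543, antibodies 1, 2 and 3: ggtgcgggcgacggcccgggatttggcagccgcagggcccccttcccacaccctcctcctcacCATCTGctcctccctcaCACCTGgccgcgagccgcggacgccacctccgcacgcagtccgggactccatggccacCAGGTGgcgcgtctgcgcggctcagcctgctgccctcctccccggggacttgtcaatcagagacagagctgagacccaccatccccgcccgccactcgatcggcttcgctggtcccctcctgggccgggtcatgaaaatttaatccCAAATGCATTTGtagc

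None of the 10 genes had a site shared by all 3 antibodies in its window, and none had a site shared by 2. A site is a stretch of overlapping peaks, merged when they shared at least 1 bp. No peak of any antibody lay in the windows of 6 genes, Dlx1, Dlx2, Dlx5, Dlx6, Gsx2 and Npy, against 44.7% of all protein-coding genes. Peaks of a single antibody were the only ones in the windows of the other 4, Gad1, Gad2, Lhx6 and Calb2, against 26.7% of all protein-coding genes. Windows with any peak thus numbered 4 of 10, against 55.3%. Across the genome 15.6% of protein-coding genes had a site of all 3 antibodies in their window and 13% had at most a site of 2. The count of 0 among 10 genes allows a share of up to 30.0%, and up to 37.5% when the 8 windows that do not overlap are counted, and the 15.6% of all genes lies below both limits, which cover counting error only.

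**Figure D1:**
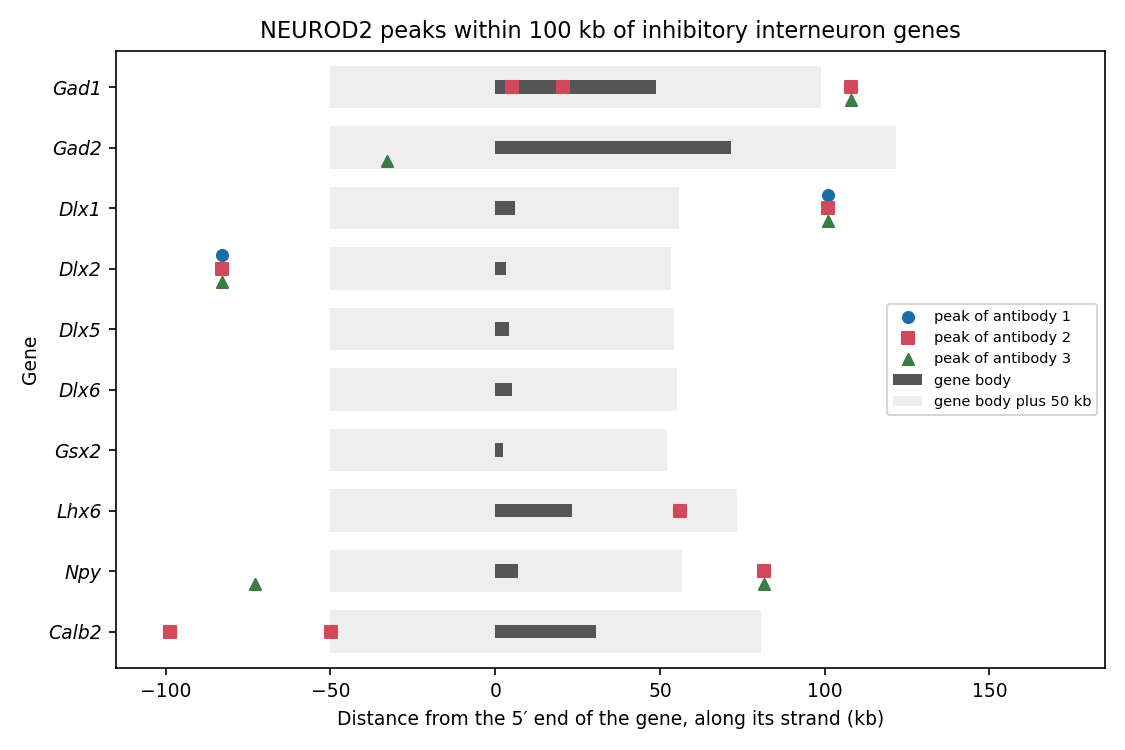
Map of the NEUROD2 peaks within 100 kb of each gene body, with the distance from the 5′ end of the gene along its strand in kb on the x axis and 1 gene per row. Dark bars are gene bodies, light bars are gene bodies plus 50 kb, and each symbol is a peak of antibody 1, 2 or 3. Of the 5 peaks inside the light bars, 2 lie in the body of Gad1, and stacked symbols of all 3 antibodies appear only at the site that lies outside the windows of Dlx1 and Dlx2.

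The deposited table of shared sites was drawn by the authors from the same 3 peak lists, so its counts are not independent of those above. It holds 2071 sites with the genes to which they were assigned, and 0 of them named any of the 10 genes or lay in any of the windows, where 15.5% of protein-coding genes had such a site. Promoter binding, a peak of any antibody no farther than 1000 bp from a transcription start site (TSS), was seen at 0 of the 10 genes, against 19.9% of protein-coding genes. The absence of a called peak does not show that a promoter was unbound. A peak inside the gene body was seen at 1 of the 10, Gad1, against 25.2%. By antibody, 0 of the 10 windows held a peak of antibody 1 (29.4% of protein-coding genes), 3 held a peak of antibody 2 (52.7%) and 1 held a peak of antibody 3 (22.1%).

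The median body of the genes studied was 6333 bp, against 17425 bp for all protein-coding genes, and shorter bodies make shorter windows. The 4 genes with a peak, Lhx6, Calb2, Gad1 and Gad2, were longer than 17425 bp, at 23456, 30709, 48943 and 71670 bp. The 6 genes without a peak were 6798 bp long or less. Having a peak thus went with gene length in this list, which was not tested. Among the 18402 protein-coding genes no longer than Gad2, the longest of the 10, 47.5% had no peak, 26.2% had single-antibody sites only and 14.1% had a site of all 3 antibodies. This limit caps gene length but does not match the lengths of the 10 genes. The 10 windows are not independent of each other. Dlx1 and Dlx2 are neighbours on chromosome 2 and Dlx5 and Dlx6 are neighbours on chromosome 6, and each pair shares most of its window. Counted without overlap, the windows spanned 1.02 Mb and held 5 sites, or 4.90 sites per Mb (95% Poisson interval 1.59 to 11.4, counting error only). The windows of all protein-coding genes held 6.36 sites per Mb, a value inside that interval. Sites of all 3 antibodies numbered 0 in the 1.02 Mb, which allows up to 2.94 per Mb, against 1.04 per Mb around all protein-coding genes.

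Gad1 was the single gene of the 10 with NEUROD2 peaks in its body. Gad1 (ENSMUSG00000070880.10, plus strand) spans chr2:70553072-70602014, and antibody 2 gave 2 peaks in its introns, where antibodies 1 and 3 gave none. The peak score is minus 10 times the log10 of the p that MACS computed against the GFP library, with 50 as the lowest score in the lists. The first peak, at chr2:70558180-70558401, was 222 bp long with a score of 125.65, higher than 64.6% of the 11196 peaks of antibody 2. It lay in intron 1 of the transcript that starts farthest upstream (ENSMUST00000130618.7), with its midpoint 3751 bp from the closest TSS of Gad1. This first peak also lay inside Gad1os, an antisense transcript on the opposite strand. It contains 1 E-box, CAGCTG.

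The second Gad1 peak, at chr2:70573571-70573865, was 295 bp long with a score of 96.31, higher than 51.2% of the list. It lay in intron 4 of ENSMUST00000094934.10, 706 bp after the exon before it and 203 bp before the next exon. Its sequence holds 7 E-boxes, among them CAGCTG at 2 places and CAGATG, with 6 of them in the central 200 bp. As many or more were found in 144, or 1.79%, of the 8041 single-antibody sites that were scanned. The peak with more E-boxes thus had the lower score of the pair. Antibody 3 had its closest peak to Gad1 59.2 kb past the gene body, with a score of 55.5, in a site shared with antibody 2 just outside the window. Antibody 1 had its closest peak 109 kb away, with a score of 87.82.

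The window of Gad2 (ENSMUSG00000026787.3, chr2:22622205-22693874, plus strand) held 1 peak of antibody 3 and no peak of antibody 1 or 2. It was 71 bp long, against a median of 253 bp in the list of antibody 3, and its score of 106.44 was higher than 68.2% of the 3164 peaks of that list. It lay 32.8 kb upstream of Gad2, inside the neighbouring gene Myo3a, which encodes a myosin, and within the unprocessed pseudogene Gm13340 (chr2:22588103-22589647). The sequence holds no E-box. It differs at 1 of 71 bases from a stretch of mt-Co1 in the mitochondrial genome, where mt-Co1 encodes a subunit of cytochrome c oxidase, and the whole of Gm13340 was 97.6% identical to mitochondrial DNA over 1545 bp. The list of antibody 3 held 4 peaks on the mitochondrial genome, against 1 in that of antibody 2 and 0 in that of antibody 1, and none of them covered the matching stretch. All 22 of the 50-base words in the peak occur at a single place in the assembly when no mismatch is allowed, and 0 of them occur in the mitochondrial genome. The part of mitochondrial DNA in this peak was not tested. In the other 4 peaks the best match to the mitochondrial genome without gaps was between 30.8% and 36.5% identical.

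The peak in the window of Lhx6 was the weakest of the 5. Lhx6 (ENSMUSG00000026890.19) spans chr2:36081953-36105408 on the minus strand, and antibody 2 gave 1 peak at chr2:36049054-36049507, with a score of 68.8, higher than 29.8% of its list. The peak lay 32.4 kb past the 3′ end of Lhx6 and 125 bp from the closest TSS, which belongs to Ndufa8, a subunit of mitochondrial complex I. It overlaps exons of Ndufa8 and of its neighbour Morn5, and it holds 4 E-boxes. Antibody 1 had its closest peak to Lhx6 at 223 kb and antibody 3 at 116 kb, with scores of 50.69 and 51.65, both near the lowest score of the lists.

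The highest score in any of the windows, 236.13, belonged to the peak that was farthest from its gene. Calb2 (ENSMUSG00000003657.9) spans chr8:110137502-110168210 on the minus strand, and antibody 2 gave 1 peak at chr8:110217716-110218250, 49.5 kb upstream of the gene body, across the edge of the window. The score was higher than 84.8% of the list. The peak lay 6 bp from the closest TSS, that of Cmtr2, which encodes an mRNA cap methyltransferase, and it holds 4 E-boxes. Antibodies 1 and 3 had no peak there, and their closest peaks to Calb2, at 151 and 152 kb with scores of 380.61 and 180.79, formed a site of all 3 antibodies in an intron of Hydin.

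**Figure D2:**
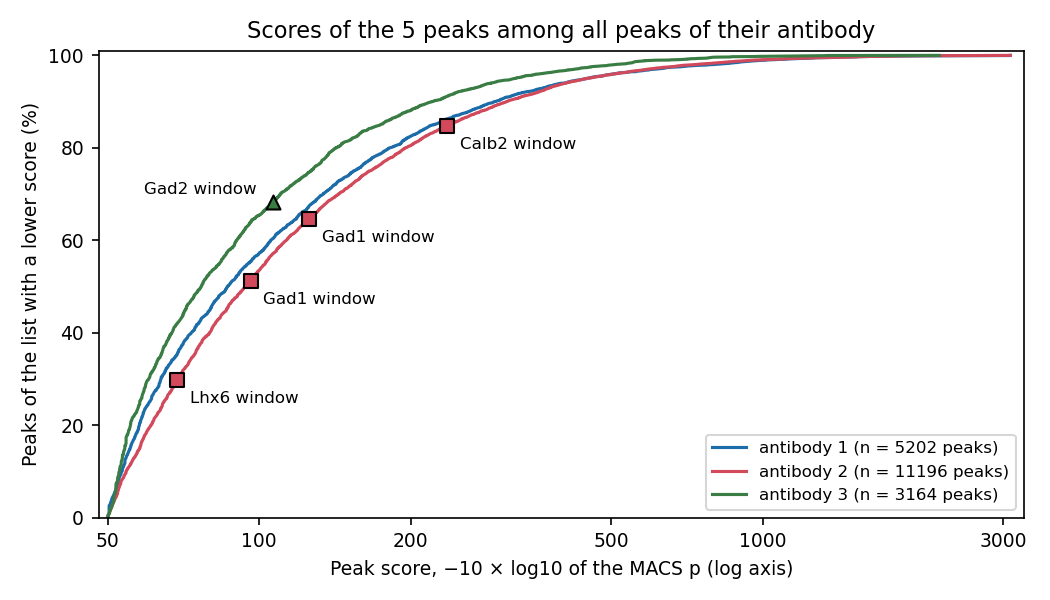
Scores of the 5 peaks of the windows among all peaks of their antibody, with the peak score on a log x axis and the percent of the list with a lower score on the y axis. Lines are the peak lists of antibodies 1, 2 and 3, squares are the 4 peaks of antibody 2 and the triangle is the peak of antibody 3. The 5 peaks run from a score of 68.8 in the Lhx6 window to 236.13 in the Calb2 window.

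By location, then, 2 of the 5 peaks lay in introns of the gene whose window they were in, 2 lay at promoters of the neighbours Ndufa8 and Cmtr2, and 1 lay in a pseudogene inside Myo3a. The midpoint of the last was 230 bp from the TSS of that pseudogene, Gm13340, which is also within the promoter limit of 1000 bp. A weak window, with every score under 100, was seen at 1 gene, Lhx6, against 18.5% of all protein-coding genes. A window with a single-antibody score of 100 or more was seen at 3, Gad1, Gad2 and Calb2, against 8.25%. The second Gad1 peak, at 96.31, was just under that limit and the Gad2 window's peak, at 106.44, was just over it. Single-antibody sites were common in these lists. They made up 8046 of the 12637 merged sites of the genome, and 6598 of them came from antibody 2, the antibody with the most peaks, with a median score of 72.5. Antibody 2 also gave 4 of the 5 peaks in the windows.

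The homeobox genes of the Dlx family and Gsx2 had no peak in any window, but they differed in how far away the closest peaks lay. Dlx1 (ENSMUSG00000041911.3, chr2:71528113-71533981, plus strand) and Dlx2 (ENSMUSG00000023391.8, chr2:71543408-71546754, minus strand) had their closest peaks of all 3 antibodies in the same site, chr2:71629373-71629816. This site lay 82.6 kb upstream of Dlx2 and 95.4 kb past the 3′ end of Dlx1, in intergenic sequence, and the TSS closest to it was that of Dlx2. Its scores were 130.14 with antibody 1, 97.12 with antibody 2 and 77.02 with antibody 3, and its central 300 bp, shown above, hold 4 E-boxes, 3 of them CAGCTG. It was the only site of all 3 antibodies within 100 kb of any of the 10 genes. A site this far or farther was the closest one for 78.2% of protein-coding genes in the case of Dlx2 and 76.3% in the case of Dlx1.

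Dlx5 (ENSMUSG00000029755.10, chr6:6877805-6882085, minus strand) and Dlx6 (ENSMUSG00000029754.13, chr6:6863334-6868568, plus strand) were the farthest of the 10 genes from any peak. The closest peak to Dlx5 was at 710 kb with antibody 1, 745 kb with antibody 2 and 710 kb with antibody 3, and the closest to Dlx6 was at 695, 731 and 695 kb. Scores at these places were between 70.48 and 89.02. The closest site of all 3 antibodies was 7260 kb from Dlx5 and 7273 kb from Dlx6, and 1.48% and 1.46% of protein-coding genes were as far from such a site. Gsx2 (ENSMUSG00000035946.7, chr5:75075601-75077893, plus strand) had its closest peaks at 229 kb with antibody 1, 243 kb with antibody 2 and 1106 kb with antibody 3, and 20.8% of protein-coding genes were as far from a site of all 3 antibodies. The last of these distances led to the promoter of Tmem165. Neither Dlx5, Dlx6 nor Gsx2 had any peak within 100 kb.

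Npy (ENSMUSG00000029819.6, chr6:49822710-49829507, plus strand) had no peak in its window but had peaks on both sides of it. Upstream, antibody 3 gave a peak at 72.8 kb with a score of 50.74, close to the lowest of its list. Downstream, antibodies 2 and 3 shared a site at 74.6 kb, chr6:49904078-49904425, with scores of 177.99 and 60.73. The closest peak of antibody 1 was 189 kb away, with a score of 102.06. The closest site of all 3 antibodies was at 232 kb.

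**Figure D3:**
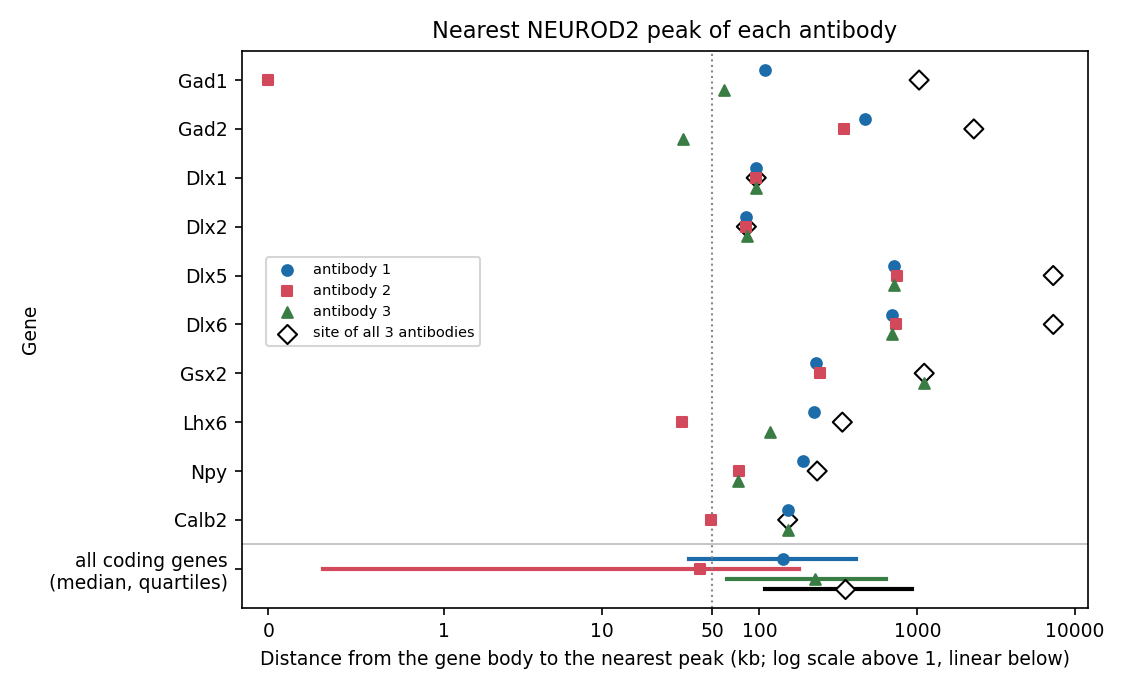
Distance from each gene body to the nearest peak of antibody 1, 2 and 3 and to the nearest site of all 3 antibodies, in kb on an axis that is logarithmic above 1, with the dotted line at 50 kb. The bottom row gives the median and quartiles over all 21938 protein-coding genes. Gad1, with a peak of antibody 2 at 0 kb, stands at the left, and Dlx5 and Dlx6 have a site of all 3 antibodies at 7260 and 7273 kb.

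Over the 10 genes, the median distance to the nearest site of all 3 antibodies was 681 kb, with a range of 82.6 to 7273 kb, against a median of 347 kb and quartiles of 108 and 923 kb over all protein-coding genes. The median distance to the nearest peak of any antibody was 77.7 kb, against 36.2 kb with quartiles of 0 and 156 kb. Both medians of the genes studied were larger than those of all genes, and no difference was tested. The quartiles describe single genes, and a median of 10 genes varies less, so they do not measure its spread. The antibodies did not order alike. With antibody 1 the median over the 10 genes was 206 kb against 142 kb for all genes, with antibody 2 it was 89.0 against 42.3 kb, and with antibody 3 it was 106 against 224 kb.

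E-boxes were present throughout the windows, with and without peaks. The 10 windows held between 4.53 (Dlx6) and 5.83 (Calb2) E-boxes per kb, with a median of 5.34, against a median of 5.68 and a lower quartile of 5.38 for all protein-coding genes. Dlx6, Dlx5, Dlx2, Dlx1, Gad1 and Gsx2 stood at or below the lower quartile, and Gad2, Npy, Lhx6 and Calb2 stood above it and below the upper quartile. The Gsx2 window, with no peak, held 5.38 E-boxes per kb, and the Gad1 window, with 2 peaks, held 5.30. In the central 200 bp of the 5 sites in the windows there were 2.00 ± 2.35 E-boxes (SD over 5 sites), with 0 in the Gad2 window, 1 in the intron 1 site of Gad1, 1 in the Calb2 window, 2 in the Lhx6 window and 6 in the intron 4 site of Gad1. All single-antibody sites had 1.77 ± 1.52 and sites of all 3 antibodies had 2.44 ± 2.03 (SD over sites), and 5 sites were too few for a test.

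Promoter sequences of 7 of the 10 genes, the 250 bases before a start site, were taken from RefSeq (GRCm38.p6), and none of these 9 promoters held a peak. The E-box CANNTG, which reads the same on both strands, was present in 5 of the 9, against 66.2% of 32851 mouse promoters. CAGCTG was present in 1 of the 9, against 13.0%, and CAGATG or its reverse complement CATCTG in 1 of the 9, that of Gad2, against 14.4%. A promoter of Lhx6 and that of Npy are shown 5′ to 3′ on the gene's strand, with E-boxes in capitals, because they differ in this respect while neither lay within 50 kb of a peak.
Lhx6 upstream promoter, chr2:36105409-36105658, minus strand: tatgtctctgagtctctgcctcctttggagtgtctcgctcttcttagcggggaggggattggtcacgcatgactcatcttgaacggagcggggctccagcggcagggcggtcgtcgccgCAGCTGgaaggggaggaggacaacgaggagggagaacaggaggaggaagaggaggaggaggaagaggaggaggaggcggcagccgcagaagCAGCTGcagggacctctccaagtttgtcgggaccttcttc
Npy promoter, chr6:49822460-49822709, plus strand: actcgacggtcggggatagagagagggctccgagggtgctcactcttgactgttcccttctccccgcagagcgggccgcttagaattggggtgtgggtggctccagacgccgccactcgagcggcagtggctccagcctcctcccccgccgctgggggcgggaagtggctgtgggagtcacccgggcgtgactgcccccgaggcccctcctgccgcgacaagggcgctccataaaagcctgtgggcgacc
The Lhx6 promoter shown, that of the start site farthest upstream, holds CAGCTG at 2 places and lay 55.9 kb from the closest peak, whereas the other two Lhx6 promoters in the table hold no E-box. The Npy promoter holds no E-box and lay 72.5 kb from the closest peak. These matches describe letters in a window and do not show whether a factor binds them.

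For comparison, 30 other genes of the interneuron lineage were examined in the same way. No peak was found in the windows of 12, single-antibody sites only in 8, a site of 2 antibodies at most in 3 and a site of all 3 antibodies in 7. The shares with no peak, 40.0%, and with a site of all 3 antibodies, 23.3%, stand beside 44.7% and 15.6% of all protein-coding genes, and no difference was tested. Npas3, Cck, Cxcr4, Zeb2, Sox6 and Prox1 were among the 7. The sum of the peak scores over antibodies in the strongest site was 673.66 in an intron of Npas3 and 374.31 in an intron of Sox6. Both are transcription factors that are also expressed by other cells. The strongest site of Cck, a neuropeptide that excitatory neurons express as well, summed to 650.21, lay 45.8 kb from the gene and held 21 E-boxes. The windows of these 30 genes held 6.15 sites per Mb (95% Poisson interval 4.45 to 8.28), an interval that overlaps that of the 10 genes studied.

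Genes of the excitatory lineage, in which NEUROD2 is expressed, were counted in the same way. Of 28 such genes, 3 had no peak, 6 had single-antibody sites only, 9 had at most a site of 2 antibodies and 10 had a site of all 3. Over all protein-coding genes the shares were 44.7%, 26.7%, 13% and 15.6%, against 10.7% with no peak and 35.7% with a site of all 3 antibodies in the list, again without a test. This list holds Neurod6, Bhlhe22, Nrcam and Cux1, which the study names as targets from these libraries, and so its count is not independent evidence. Without these 4 genes, 6 of 24 had a site of all 3 antibodies and 3 had no peak. The summed score in the strongest site was 1087.42 beside Slc17a7, 980.73 in an intron of Cux2 and 962.96 at 2.36 kb from Emx1. At the site beside Slc17a7, chr7:45162062-45162726, the scores were 323.32 with antibody 1, 606.46 with antibody 2 and 157.64 with antibody 3. This site had the highest summed score of the excitatory list, whose windows held 94 sites, against 5 in the windows of the 10 genes. A highest score tends to be larger among more sites, so these scores are not a like comparison. The highest score of antibody 2 in the windows of the 10 genes was 236.13, that of antibody 3 was 106.44, and antibody 1 had none. The excitatory windows held 14.3 sites per Mb (95% Poisson interval 11.6 to 17.6), against an interval of 1.59 to 11.4 around the 10 genes. The window of Neurod2 alone held 16 of the 94 sites, and without it the density was 12.1 per Mb (9.56 to 15.1), an interval that overlaps that of the 10 genes. Without Neurod2 and the 4 genes that the study names, it was 11.6 per Mb (8.88 to 14.8). The lists were not matched for gene length, with a median body of 22745 bp in the excitatory list, 13787 bp in the other interneuron list and 6333 bp in the genes studied.

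**Figure D4:**
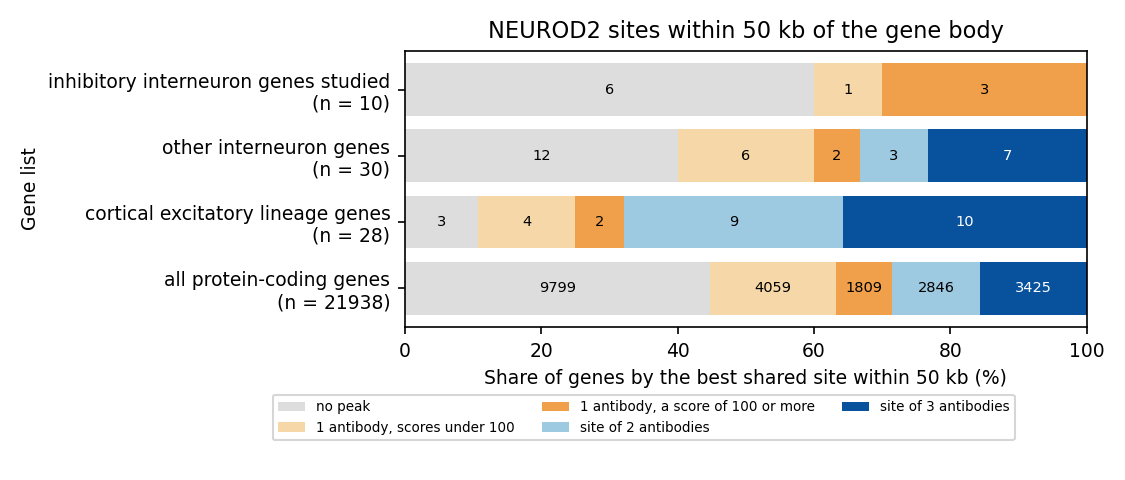
Share of the genes of each list, in percent on the x axis, by the best shared site within 50 kb of the gene body, with the number of genes printed in each bar. Rows are the 10 inhibitory interneuron genes, 30 other interneuron genes, 28 cortical excitatory lineage genes and all 21938 protein-coding genes. Sites of 2 or 3 antibodies are missing from the top row and make up 19 of the 28 genes in the excitatory row.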

How the data were processed

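ChIP-Seq reads of the 3 NEUROD2 antibodies were aligned by the authors with Bowtie (mm10), and MACS was run on the reads of each antibody with the GFP library as control. Peaks in the deposited lists carry a score, computed by MACS as minus 10 times log10 of p, and the deposited table gives 1 score per shared site. Neither file holds read counts, so the depth is unknown from these files, and binding under the threshold of the caller was not measured here. The input library and the authors' qPCR were not analysed here.

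Gene bodies and TSSs were taken from GENCODE M21 (GRCm38, the same build), with distances to a TSS measured from the midpoint of a peak and distances to a gene body from its nearest edge. Sequences came from the GRCm38.p6 reference (C57BL/6J, whereas the mice were BALB/c), and promoters from RefSeq. The genes named are the 10 genes studied, genes that hold a peak of their windows, and genes of both comparison lists with a site of all 3 antibodies, at most 8 per list. The result for 1 gene of these lists is not reported here. The genes and lists were chosen with earlier results of these data known. Shares are described beside those of all protein-coding genes, without a test. Alternatives concerned the flank, the score, the overlap, the deposited table, gene length, the promoter and E-box windows, and leaving out each antibody. The scripts were tested on simulated data. The tools were pysam 0.24.0, scipy 1.17.1, pandas 2.3.3, numpy 2.4.6 and matplotlib 3.10.9 under Python 3.11.15.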

Additional observations from a re-analysis of the deposited data

How the results depend on the processing

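No alternative with a flank of 50 kb or less gave any of the 10 genes a site of all antibodies. A smaller flank, a score limit, a stricter overlap or fewer antibodies could not add such a site where there was none. The deposited sites came from the same peak lists. These counts of 0 therefore do not show that the result is stable, and the larger flank is the alternative that could change it. With a flank of 100 kb, 2 genes (Dlx1 and Dlx2) had such a site, 3 had no peak, and the windows held 10 sites, while 23.6% of all protein-coding genes had a site of all antibodies and 32.5% had no peak. In gene bodies alone, 0 of the 10 genes had a site of all antibodies and 9 had no peak, against 5.20% and 74.8% of all genes, and 1 gene (Gad1) had single-antibody sites, 2 in number. A flank of 10 kb gave the same counts, against 7.52% and 64.8% of all genes. With scores of at least 100, 0 of the 10 genes had a site of all antibodies and 7 had no peak, against 7.53% and 66.3% of all genes, and the windows held 3 sites. Among genes no longer than the longest of the 10, the shares were 14.1% and 47.5%.

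Leaving out each antibody in turn gave 0 genes with a site of the remaining antibodies, against 15.7% to 25.4% of all genes. This 0 was fixed in advance, because no window held a site of 2 antibodies when all 3 lists were used. With each antibody left out, 6 to 9 genes had no peak, against 45.6% to 66.1% of all genes. Single-antibody sites were then seen at 1 to 4 genes, and the windows held 1 to 5 sites. Without antibody 2, 9 genes had no peak and 1 site remained, the peak of antibody 3 in the Gad2 window. The count of promoter peaks was 0 in every alternative, and the E-boxes of the 5 sites were 1.78 and 2.40 per 200 bp. The densities without Neurod2 and without the genes that the study names were chosen after seeing the data.

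No paired analysis was possible because the NEUROD2 libraries form the only group with peak lists. The depth behind the lists is unknown from these files, and binding under the threshold of the caller was not measured.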
